A study of Mus musculus with 16 samples.

Results

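S1pr1, Klf2, Ccr7 and Il7r are 4 genes that mark the passage of a thymocyte out of the double-positive stage and out of the thymus. They were chosen by name and were found among the 55335 gene identifiers counted in 10 libraries and the 54532 counted in 6 others. Each library is bulk RNA sequencing of mouse double-positive (DP) thymocytes, the CD4+ CD8+ cells that make up most of the thymus, collected by flow cytometry. The 16 libraries fall into 5 groups, namely old WT (n = 4), young METTL3 KO (n = 3), young WT (n = 3), METTL3 KO without an age (n = 3) and WT without an age (n = 3). METTL3 is the catalytic subunit of the enzyme complex that writes N6-methyladenosine on RNA. The labels give no age in weeks or months, no strain, no deleted exon and no Cre or other driver of the deletion, and they name no agent given to any group. Nothing in them says that replicates came from separate animals, so p-values measure the spread between these libraries, which may be technical.

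Thymocytes that pass selection stop being DP cells, become single-positive cells, move to the medulla and then leave for the blood. CCR7 is a chemokine receptor that draws selected cells into the medulla. IL-7 receptor alpha, the product of Il7r, is shut off in DP cells and returns after positive selection, when it carries survival signals through JAK and STAT5. KLF2 is a zinc finger transcription factor that switches on S1pr1 in mature thymocytes, and FOXO1 acts upstream of both Klf2 and Il7r. S1PR1 is the receptor for sphingosine 1-phosphate that lets mature thymocytes leave the thymus, and CD69 holds it off the cell surface. None of the 4 genes is restricted to T cells: B cells express all of them at some stage, and S1pr1 and Klf2 are strongly expressed by endothelium.

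In mm10, S1pr1 (ENSMUSG00000045092) lies on chromosome 3 at 115710433 to 115715072 on the minus strand. Klf2 (ENSMUSG00000055148) lies on chromosome 8 at 72319033 to 72321656 on the plus strand. Ccr7 (ENSMUSG00000037944) lies on chromosome 11 at 99144196 to 99155077 on the minus strand, and Il7r (ENSMUSG00000003882) on chromosome 15 at 9505788 to 9530176 on the minus strand. No other annotated gene overlaps any of them, so their counts are not shared with a neighbour. Promoter sequence was at hand for 2 of the 4, Klf2 and Il7r, from the RefSeq promoter table of GRCm38.p6. The stretches end just before the first annotated start of a protein-coding transcript. The Il7r stretch lies inside the annotated span of the gene given above, which begins further upstream with an exon of a non-coding transcript that covers part of the stretch. Both are shown because these 2 promoters belong to a pair of genes that FOXO1 is known to act on and differ in base composition. Capitals mark a match to the MEF2 motif, which is CTA, any 4 bases and TAG.
Klf2, chr8:72318812-72319032, plus strand: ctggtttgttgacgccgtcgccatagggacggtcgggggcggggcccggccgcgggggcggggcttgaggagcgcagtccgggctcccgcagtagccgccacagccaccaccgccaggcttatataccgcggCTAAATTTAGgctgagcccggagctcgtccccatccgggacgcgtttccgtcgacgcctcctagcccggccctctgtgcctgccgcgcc
Il7r, chr15:9529942-9530126, minus strand: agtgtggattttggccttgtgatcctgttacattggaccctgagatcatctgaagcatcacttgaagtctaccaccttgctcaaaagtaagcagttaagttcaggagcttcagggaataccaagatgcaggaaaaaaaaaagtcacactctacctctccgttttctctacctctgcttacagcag
The Klf2 stretch of 221 bases is 71.5% G and C and holds 28 CpG, and the Il7r stretch of 185 bases is 43.8% G and C and holds 1 CpG. Both strands of the whole windows of 300 bases (250 before and 50 after each gene's start in the table) were searched for 4 motifs. The MEF2 motif occurred once in Klf2 and not in Il7r, against 3.69% of 32851 promoter windows. The FOXO motif TGTTTAC occurred in neither window, against 3.65% of all windows. The KLF motif CACCC, present in 57.5% of all windows, occurred once in Klf2, and the ETS motif GGAAGT, present in 23.8%, occurred once in Il7r, both outside the letters printed above. These matches are letters in a sequence, and no binding was measured.

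Gene counts summed to 9781368 to 10307780 per library in the set with an age and 10575795 to 16167074 in the set without one. Reads that did not align made up 50.5% to 52.2% of the set without an age but 0.577% to 0.826% of the set with one, so levels were compared within each set only. Cd4, Cd8a and Rag1, which together mark DP cells, reached at least 845, 2144 and 959 CPM in all 16 libraries, where CPM is counts scaled to library size with TMM factors within a set. Mettl3 had 626 to 653 counts in the libraries labelled young METTL3 KO and 591 to 678 counts in young WT, a log2 fold change of -0.00 ± 0.09 (SE; adjusted p = 1, edgeR), which goes against that label. Mettl3 had 357 to 441 counts in METTL3 KO libraries without an age and 692 to 835 in WT without an age, a log2 fold change of -0.58 ± 0.18 (adjusted p = 0.0189, edgeR), a call that was lost with library size as the only scaling (adjusted p = 0.0653) or without WT replicate 1 (0.0695). Counts may come from parts of the gene that the deletion leaves in place.

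The 4 genes were expressed at low levels in young WT DP thymocytes. Per kilobase of exonic sequence, Ccr7 averaged 4.37 ± 0.395 CPM per kb (SD, n = 3) and Klf2 3.99 ± 0.644, and the libraries of these neighbours overlapped. Il7r averaged 2.15 ± 0.212 CPM per kb and S1pr1 0.727 ± 0.121, with no overlap between neighbours. In WT without an age the order was Klf2 at 11.6 ± 1.46 CPM per kb, Ccr7 at 5.44 ± 1.88, Il7r at 1.49 ± 0.496 and S1pr1 at 0.659 ± 0.121 (SD, n = 3), and no neighbours overlapped. S1pr1 was thus the lowest of the 4 in both WT groups, and outside old WT replicate 3 it rested on 11 to 43 counts a library.

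**Figure D1:**
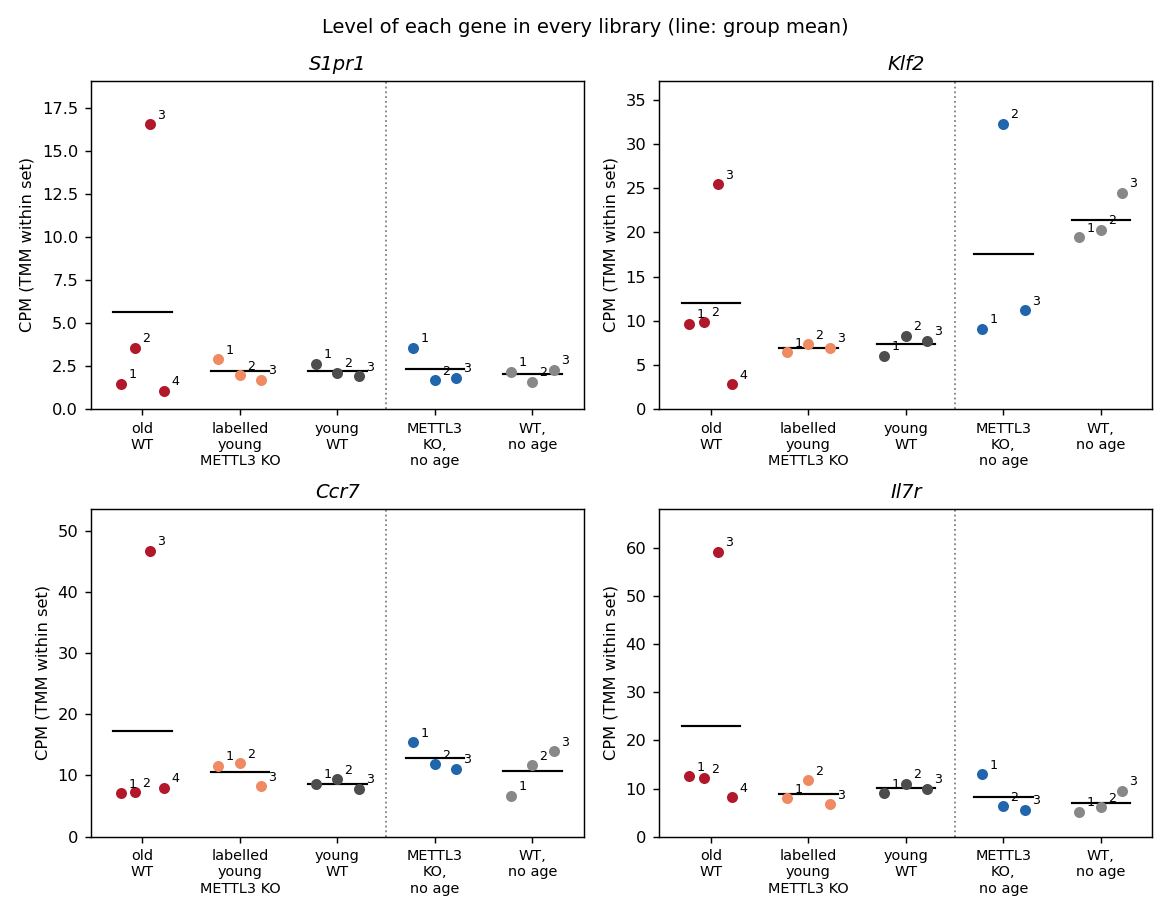
Level of each gene in CPM (vertical axis, linear, from 0) in each of the 16 libraries; points are libraries numbered by replicate, horizontal lines are group means, and the dotted line parts the sets with and without an age, which were scaled separately. Old WT replicate 3 is the highest library with an age for all 4 genes, and Klf2 in METTL3 KO replicate 2 without an age stands at 32.3 CPM, above the 9.08 and 11.2 CPM of the other KO libraries.

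S1pr1, the egress receptor, had 1.47, 3.57, 16.6 and 1.06 CPM in old WT replicates 1 to 4, 2.88, 1.98 and 1.69 CPM in libraries labelled young METTL3 KO, and 2.63, 2.10 and 1.91 CPM in young WT. Without an age it had 3.55, 1.66 and 1.81 CPM in METTL3 KO and 2.16, 1.59 and 2.28 CPM in WT. One old WT library is far above every other with an age, where the rest lie between 1.06 and 3.57 CPM. Libraries without an age lie between 1.59 and 3.55 CPM, and in both sets every group overlaps its WT.

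Klf2, the transcription factor that drives S1pr1, had 9.67, 9.91, 25.5 and 2.80 CPM in old WT, 6.45, 7.31 and 6.96 CPM in libraries labelled young METTL3 KO, and 6.04, 8.32 and 7.76 CPM in young WT. Without an age it had 9.08, 32.3 and 11.2 CPM in METTL3 KO and 19.5, 20.3 and 24.5 CPM in WT. Old WT thus held both the highest and the lowest Klf2 library of its set. In the set without an age, KO replicates 1 and 3 lay below all WT libraries and KO replicate 2 above them all.

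Ccr7, the receptor for entry into the medulla, had 7.13, 7.24, 46.7 and 8.02 CPM in old WT, 11.6, 12.1 and 8.25 CPM in libraries labelled young METTL3 KO, and 8.66, 9.42 and 7.86 CPM in young WT. Without an age it had 15.4, 11.8 and 11.1 CPM in METTL3 KO and 6.66, 11.7 and 13.9 CPM in WT. Old WT replicates 1, 2 and 4 were thus within or below the range of young WT, and replicate 3 was well above every other library with an age.

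Il7r, the survival cytokine receptor, had 12.6, 12.1, 59.2 and 8.21 CPM in old WT, 7.94, 11.8 and 6.76 CPM in libraries labelled young METTL3 KO, and 9.05, 11.02 and 9.97 CPM in young WT. Without an age it had 12.96, 6.30 and 5.59 CPM in METTL3 KO and 5.16, 6.17 and 9.57 CPM in WT. Old WT replicate 3 again stood alone, and KO replicate 1 was the highest library without an age, as it was for S1pr1 and Ccr7.

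Old and young WT libraries bear on how DP thymocytes change with age. None of the 4 genes passed the test, and the higher old WT means came from replicate 3. S1pr1 averaged 5.66 ± 7.34 CPM in old WT and 2.22 ± 0.37 CPM in young WT, and Klf2 11.96 ± 9.59 CPM in old WT and 7.37 ± 1.19 CPM in young WT (SD, n = 4 and 3). Ccr7 averaged 17.3 ± 19.6 CPM in old WT and 8.65 ± 0.781 CPM in young WT, and Il7r 23.0 ± 24.2 CPM in old WT and 10.02 ± 0.985 CPM in young WT. The spread of old WT exceeded the difference for all 4. The log2 fold changes were 1.34 ± 0.87 for S1pr1 (SE; adjusted p = 0.562, edgeR quasi-likelihood test with Benjamini-Hochberg adjustment), 0.69 ± 0.55 for Klf2 (0.645), 0.99 ± 0.73 for Ccr7 (0.615) and 1.19 ± 0.70 for Il7r (0.524). Their 95% intervals all included 0 and reached 3.30, 1.94, 2.66 and 2.80, so a rise of several fold cannot be told from none in this design. Of all 14228 genes tested, 36 passed (0.253%), and 0 of the 4 had old and young WT libraries that did not overlap, against 9.78% of all genes.

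Without old WT replicate 3, the old WT means were 2.03 ± 1.35 CPM for S1pr1, 7.46 ± 4.04 for Klf2, 7.46 ± 0.484 for Ccr7 and 10.97 ± 2.40 for Il7r (SD, n = 3). S1pr1 and Ccr7 then lay on the other side of young WT. The log2 fold changes became -0.13 ± 0.40 (adjusted p = 0.937, edgeR) for S1pr1, 0.02 ± 0.34 (0.991) for Klf2, -0.21 ± 0.18 (0.692) for Ccr7 and 0.13 ± 0.21 (0.856) for Il7r. The intervals narrowed to between -0.99 and 0.74 for S1pr1, -0.72 and 0.76 for Klf2, -0.59 and 0.17 for Ccr7, and -0.33 and 0.59 for Il7r. Ccr7 and Il7r therefore have the tightest bounds in this fit. Leaving out the library that stood furthest apart narrows the spread by itself, so these intervals do not bound the change with age. The labels give no ground for leaving it out.

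**Figure D2:**
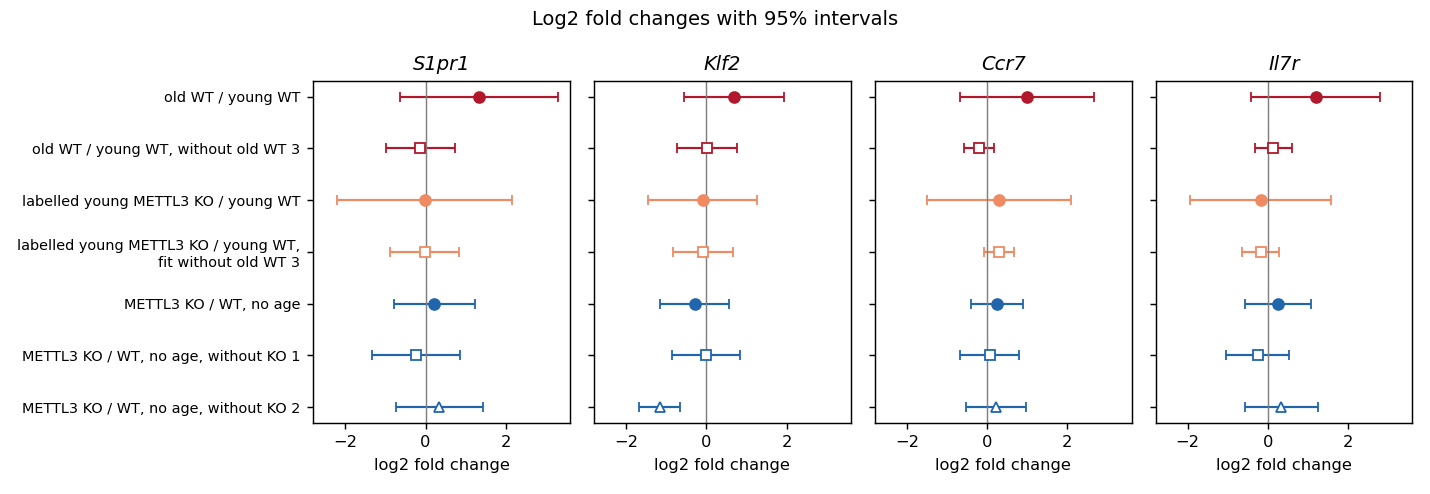
Log2 fold change of each gene (horizontal axis) in 3 comparisons, with and without the libraries named; points are estimates and bars are 95% intervals, filled circles are fits with all libraries of the set, and open squares and triangles leave out the library named. The old WT estimates of 1.34, 0.69, 0.99 and 1.19 move to -0.13, 0.02, -0.21 and 0.13 without old WT replicate 3, and Klf2 without METTL3 KO replicate 2 is the one interval that leaves 0.

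Old WT replicate 3 exceeded the next highest of the 10 libraries with an age 4.64-fold for S1pr1, 2.57-fold for Klf2, 3.88-fold for Ccr7 and 4.70-fold for Il7r. By comparison, 24.8% of the 14228 tested genes had their highest CPM in this library, and 2.65% stood at least 2-fold above every other library there. In bulk RNA, fewer or more cells of a type and less or more RNA per cell cannot be told apart. Signs of library composition differed there too: mt-Co1, a mitochondrial transcript, had 53630 CPM in old WT replicate 3 and 9974 to 14260 CPM in the other libraries with an age, and reads that aligned to several places made up 9.18% of entries, against 4.46% to 5.36% in the others. Their part in the levels of the 4 genes was not tested. Markers of other cells stood high in the same library. Summed over 26 genes of mature single-positive thymocytes without the 4 described here, it had 3155 CPM, against 1750 to 1863 CPM in the other old WT libraries and 1619 to 1663 CPM in young WT. The MHC class I genes H2-K1 and H2-D1, which many cell types express, made up much of that excess: H2-K1 had 596 CPM in old WT replicate 3 and 86.6 to 110.5 CPM in the other old WT libraries, and H2-D1 had 635 CPM there and 207 to 261 CPM in the others. Zbtb7b, the factor that commits cells to the CD4 lineage, had 26.3 CPM there, against 2.90 to 5.85 CPM in the other old WT libraries and 2.92 to 3.70 CPM in young WT. Its values chose it, as one of the nearest profiles of S1pr1 given below. Not every gene of the list was higher there. Emb had 165.8 CPM there, against 194.9 to 215.6 CPM in the other old WT libraries. Stat4 had 9.886 CPM there, against 12.31 to 16.03 CPM in the other old WT libraries. The 16 DP genes summed to 18290 CPM there, below the 20060 to 23700 CPM of the other old WT libraries. Of the 29 mature single-positive genes tested (of 30, the 4 included), 0 were called for old over young WT and 28 were above 0, with a median log2 fold change of 0.64, against 0.01 over all genes. Of all genes tested, 51.15% were above 0. With the 4 genes left out, 24 of 25 were above 0, with a median of 0.52. Without old WT replicate 3, 20 of the 29 were above 0, with a median of 0.13.

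B cell markers (13 genes, 0 of them at 0 in any library with an age) summed to 677.9, 940.6, 1787 and 480.3 CPM in old WT and 438.6 to 492.5 CPM in young WT, most of it Ighm. Cd79a, a subunit of the B cell receptor, had 3.62, 9.91, 27.1 and 2.42 CPM in old WT and 1.00 to 1.66 CPM in young WT. Dendritic cell markers (12 genes) summed to 75.2, 132.8, 920.2 and 56.7 CPM in old WT and 43.4 to 77.6 CPM in young WT, with 0 to 2 of them at 0 in either group. Most of the sum in old WT replicate 3 was Cd74 (315.1 CPM), H2-Ab1 (190.5), H2-Aa (187.3) and H2-Eb1 (162.3). These MHC class II genes are not restricted to dendritic cells, so this sum and the B cell sum are not separate signals. Myeloid markers (13 genes, of which 1 to 3 were at 0 in old WT and 1 or 2 in young WT) summed to 36.0, 34.7, 173.3 and 32.5 CPM in old WT and 25.4 to 27.7 CPM in young WT. The neutrophil genes S100a8 and S100a9 were at 0 in old WT replicate 3, but reached only 0.586 and 0.297 CPM in the other old WT libraries. These levels are too low to set that library apart. All 4 genes were thus highest in the library where the sums of mature single-positive, B cell, dendritic and myeloid genes were highest, and the part of each in the result was not tested. Over the 4 old WT libraries S1pr1 and Klf2 ran in the same order as the B cell sums and the dendritic sums. Il7r ran in the order of the myeloid sums and of the NK, NKT and gamma-delta sums (174.3, 169.4, 196.9 and 95.4 CPM). Ccr7 ran in none of these orders. Old WT replicate 3 was highest throughout, so only the order of the other old WT libraries was free. Such matches are easily met and are no test of a cell source. Some of these ranks rest on small gaps, as for Klf2 with 99 and 100 counts in replicates 1 and 2.

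**Figure D3:**
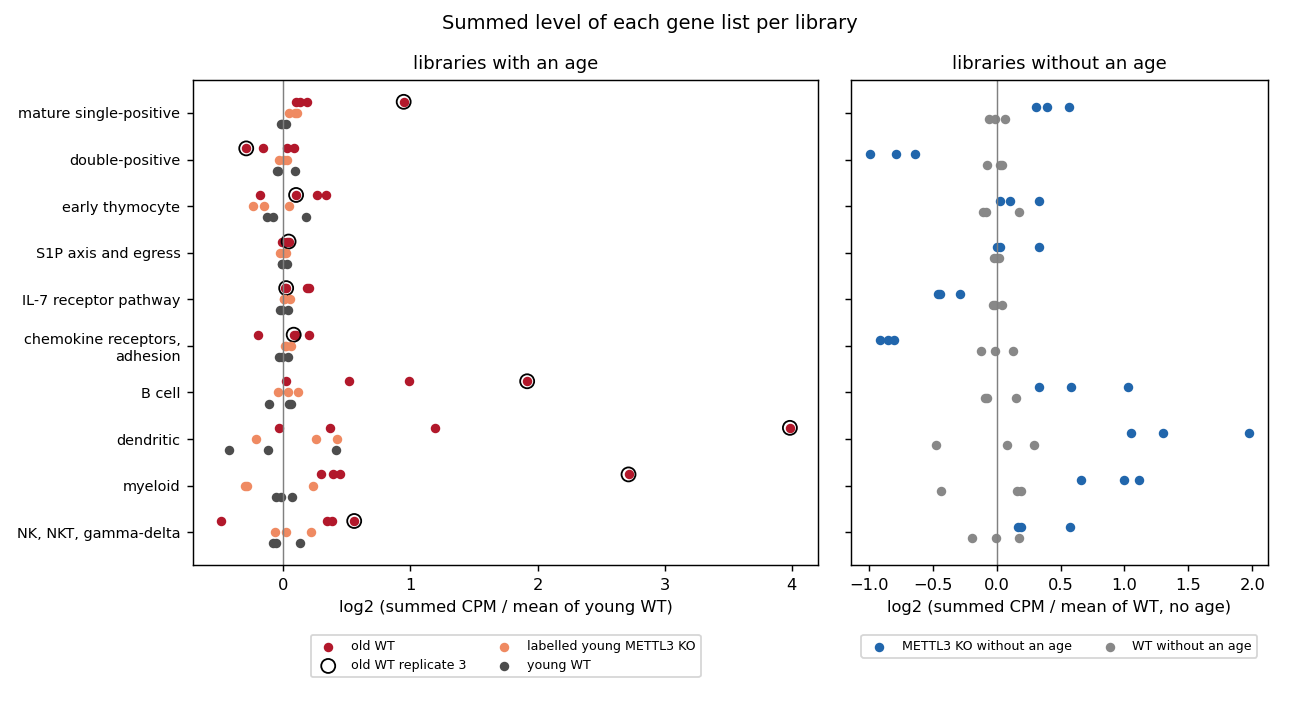
Summed CPM of each gene list as log2 ratio to the mean of the WT libraries of the same set (horizontal axis; young WT on the left, WT without an age on the right), with the 4 genes left out of every sum; each point is a library and the ringed points are old WT replicate 3. The ringed library is at 0.95 for mature single-positive genes, 1.92 for B cell, 3.98 for dendritic and 2.71 for myeloid markers, while the S1P axis, IL-7 and chemokine receptor lists stay within 0.20 of young WT in all old WT libraries.

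No other gene of the same pathways passed the test of old against young WT either. A list of the S1P axis and egress had 20 of 24 genes tested, with 0 called and a median log2 fold change of 0.08, against 0.01 over all genes. The IL-7 receptor list had 17 of 18 tested, 0 called and a median of 0.21, and the chemokine receptor and adhesion list had 18 of 24 tested, 0 called and a median of 0.28. Of these lists, Ccr2, a chemokine receptor, had a log2 fold change of 2.30 ± 0.45 (adjusted p = 0.0676, edgeR). Socs3, a feedback inhibitor of cytokine signalling, had 25.1 to 42.6 CPM in old WT and 18.9 to 20.3 CPM in young WT, a log2 fold change of 0.71 ± 0.16 (0.124). It passed without a filter on low counts, with DESeq2 and without old WT replicate 2 (adjusted p = 0.0076, 0.0131 and 0.0471). Ccr2 passed without a filter, with DESeq2, with the replicate block and without old WT replicate 3 or 4 (adjusted p = 0.00703, 0.000409, 0.0146, 0.0102 and 0.037). Among 19 partners described singly, old over young WT ran between -0.10 for Coro1a and 1.02 for Cish, and the lowest adjusted p of these partners was 0.248 (Socs1, edgeR). Il2rg, the chain that pairs with IL-7 receptor alpha, had 54.7 to 86.1 CPM in old WT and 49.5 to 52.2 CPM in young WT, a log2 fold change of 0.41 ± 0.14 (adjusted p = 0.296, edgeR). Socs1, a feedback inhibitor of cytokine receptors, had 60.1 to 95.9 CPM in old WT and 55.5 to 59.3 CPM in young WT. Its log2 fold change was 0.49 ± 0.14, and without old WT replicate 3 it was 0.62 ± 0.11 and passed (adjusted p = 0.0259, edgeR). Bcl2, Ccr4 and Itgb7 also had old WT libraries that were all above young WT, which makes 5 of 19 partners without overlap, against the 9.78% of all genes. Foxo1 had 48.9 to 69.6 CPM in old WT and 50.8 to 65.3 CPM in young WT.

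For the libraries labelled young METTL3 KO, none of the 4 genes differed from young WT by the test, and neither did any other gene. In the libraries labelled young METTL3 KO, S1pr1 averaged 2.18 ± 0.62 CPM, Klf2 6.91 ± 0.433, Ccr7 10.6 ± 2.08 and Il7r 8.82 ± 2.61 (SD, n = 3), against the young WT means given above. Ccr7 was the only one of the 4 with the higher mean in the libraries labelled young METTL3 KO. The fit shares its spread with old WT, so its errors are wide: the log2 fold changes were -0.02 ± 0.97, -0.09 ± 0.60, 0.30 ± 0.78 and -0.18 ± 0.76 in the same gene order (adjusted p = 1 for each, edgeR). With these 2 groups fitted alone, the 95% intervals were -0.61 to 0.56 for S1pr1, -0.43 to 0.25 for Klf2, -0.03 to 0.63 for Ccr7 and -0.56 to 0.19 for Il7r. A count of 0 of 14228 genes (0%) passed edgeR's test, 88 (0.618%) had an unadjusted p under 0.05, and DESeq2 called 0. None of the 4 genes had groups that did not overlap, against 9.26% of all genes. The partners ran between -0.11 for Foxo1 and 0.48 for Cish with 0 called (lowest adjusted p = 1, edgeR), and 0 genes of the S1P axis, IL-7 receptor, chemokine receptor and mature single-positive lists passed.

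In the set without an age, METTL3 KO differed from WT in most of the genes tested, and none of the 4 genes was among those called. Reads outside genes made up 11.8% to 15.0% of entries in METTL3 KO and 7.23% to 7.60% in WT, and reads in genes 27.3% to 29.5% in METTL3 KO and 37.0% to 37.3% in WT, and their part in the calls was not tested. The test called 8864 of 16432 genes (53.9%), 29.9% higher and 24% lower, and 63.8% had groups that did not overlap, against 0 of the 4. S1pr1 averaged 2.34 ± 1.05 CPM in METTL3 KO and 2.01 ± 0.367 CPM in WT, a log2 fold change of 0.22 ± 0.46 (SE; adjusted p = 0.709, edgeR). Ccr7 averaged 12.8 ± 2.32 CPM in METTL3 KO and 10.8 ± 3.73 CPM in WT, a log2 fold change of 0.25 ± 0.29 (0.496). Il7r averaged 8.29 ± 4.06 CPM in METTL3 KO and 6.97 ± 2.31 CPM in WT, a log2 fold change of 0.25 ± 0.37 (0.595). The 95% intervals ran from -0.79 to 1.24 for S1pr1, -0.39 to 0.89 for Ccr7 and -0.57 to 1.06 for Il7r, so a log2 change of 1 upward lies inside the intervals of S1pr1 and Il7r and outside that of Ccr7. Without KO replicate 1, S1pr1 and Il7r turned to -0.23 and -0.26, and Ccr7 turned to -0.06 without WT replicate 1, all with adjusted p above 0.05.

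Klf2 averaged 17.5 ± 12.9 CPM in METTL3 KO and 21.4 ± 2.70 CPM in WT without an age, a log2 fold change of -0.29 ± 0.39 (adjusted p = 0.55, edgeR; 95% interval -1.15 to 0.57). KO replicate 2 decides this value. Without it the log2 fold change was -1.16 ± 0.23 (interval -1.67 to -0.66, adjusted p = 0.00232), with 9.08 and 11.2 CPM in KO against 19.5 to 24.5 CPM in WT. The labels give no ground for leaving this library out, and S1pr1, Ccr7 and Il7r in it were at 1.66, 11.8 and 6.30 CPM, each between or beside the other KO libraries.

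Partners of the 4 genes were among the genes called in the same KO libraries. Of 19 partners tested, 4 rose and 9 fell, where 29.9% of all genes tested rose and 24% fell. Among chemokine receptors, Ccr9, the receptor for CCL25, fell to 464 to 581 CPM in METTL3 KO, against 1170 to 1632 CPM in WT, a log2 fold change of -1.40 ± 0.18 (adjusted p = 0.000156, edgeR). Ccr4 fell by 1.33 ± 0.20 and Cxcr4, which holds DP cells in the cortex, by 1.07 ± 0.16 on the log2 scale. Foxo1 fell by 0.85 ± 0.22 (adjusted p = 0.00712, edgeR) and Cd69 by 0.73 ± 0.18 (0.00569). In the sphingosine 1-phosphate pathway, Sgpl1, the lyase that degrades the ligand, fell by 0.97 ± 0.21 and the receptor S1pr4 by 0.79 ± 0.28.

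Around Il7r the called partners went both ways. Jak1, the kinase bound to IL-7 receptor alpha, fell to 207 to 247 CPM in METTL3 KO, against 469 to 609 CPM in WT, a log2 fold change of -1.20 ± 0.16 (adjusted p = 0.000197, edgeR). Stat5b, the main transcription factor of the pathway, fell by 0.87 ± 0.16. Jak3, the kinase bound to the common gamma chain, rose by 0.78 ± 0.16, to 59.8 to 72.3 CPM in METTL3 KO, against 36.5 to 39.3 CPM in WT. The survival gene Bcl2 rose by 0.65 ± 0.17, Gfi1, a repressor of Il7r, by 0.51 ± 0.14, and the gut-homing integrin Itgb7 by 0.75 ± 0.21. Il2rg, Sphk2, Coro1a, Stat5a, Socs1 and Cish did not pass. Socs3, a member of the IL-7 receptor list that is not among the 19 partners, rose by 1.23 ± 0.20 (adjusted p = 0.000597, edgeR), to 71.1 to 99.9 CPM in METTL3 KO, against 26.6 to 39.6 CPM in WT. The calls of Bcl2 and Gfi1 were lost without a filter on low counts and without 2 of the 3 WT libraries in turn (adjusted p up to 0.0828 and 0.15), S1pr4 without KO replicate 1 or WT replicate 2 (up to 0.086), and Itgb7 without WT replicate 3 (0.0621).

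**Figure D4:**
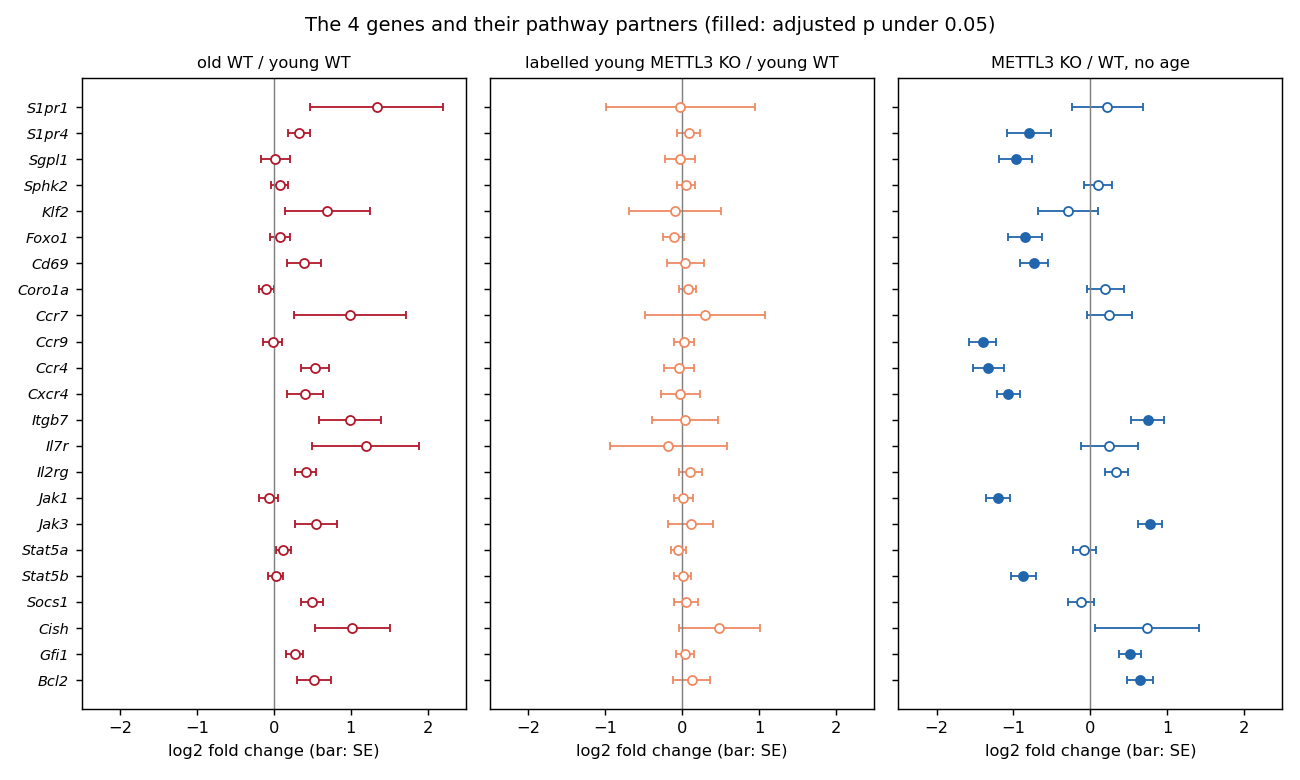
Log2 fold change of the 4 genes and 19 pathway partners (rows) in 3 comparisons (panels); points are estimates, bars are standard errors, and filled points have an adjusted p under 0.05 in edgeR. No point is filled in the panels with an age, while 13 partners and none of the 4 genes are filled for METTL3 KO without an age.

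By whole list, the S1P axis and egress list had 22 of 24 genes tested in METTL3 KO against WT without an age, with 5 called higher, 11 lower and a median log2 fold change of -0.43, against 0.08 over all genes, of which 29.9% were called higher and 24% lower. The IL-7 receptor list had 17 tested, 4 higher, 6 lower and a median of 0.18, and the chemokine receptor and adhesion list had 19 tested, 5 higher, 8 lower and a median of -0.36. Genes of mature single-positive thymocytes had 29 tested, 4 higher, 2 lower and a median of 0.12, a smaller share called than the 53.9% over all genes, although their sum over the 26 genes was 2438 to 2925 CPM in METTL3 KO and 1895 to 2062 CPM in WT. Among the 16 DP genes, 10 fell and 0 rose. Sums of other cells' markers also differed between these groups: B cell markers were at 714 to 1159 CPM in METTL3 KO and 532 to 631 CPM in WT, dendritic markers at 114 to 216 CPM in METTL3 KO and 39.6 to 67.4 CPM in WT, and myeloid markers at 33.5 to 46.1 CPM in METTL3 KO and 15.7 to 24.3 CPM in WT. The dendritic list includes the MHC class II genes named above, which are not restricted to dendritic cells. At most 4 markers of a list were at 0 in any of these libraries. Their part in the levels of the 4 genes was not tested.

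Whether the KO difference itself was unequal in the sets with and without an age was tested as an interaction over 12 libraries. None of the 4 genes passed, against 6104 of 16557 genes (36.9%). The difference of differences, without an age minus young, was 0.42 ± 0.52 on the log2 scale for S1pr1 (SE; adjusted p = 0.565, edgeR), -0.03 ± 0.52 for Klf2 (1), 0.12 ± 0.36 for Ccr7 (0.851) and 0.61 ± 0.46 for Il7r (0.315). Without KO replicate 2 of the set without an age, that of Klf2 was -1.02 (adjusted p = 0.00535). The sets differ in sequencing and in the share of reads aligned as well as in what the labels say of age, and these cannot be told apart.

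The genes with the profile nearest to each of the 4 over the 10 libraries with an age were found by the root mean square difference of centred log2 CPM among 9412 or 9413 other genes. For Il7r they were Ifi30 (0.15), Capg (0.21) and Sema4a (0.22), against a standard deviation of 0.87 of Il7r itself. For S1pr1 they were Samhd1 (0.23), Zbtb7b (0.24) and Lfng (0.24), against 1.02. For Ccr7 they were Ctsw (0.18), mt-Co1 (0.23) and Ccnd2 (0.23), against 0.80, and for Klf2 Acot7 (0.32), Filip1l (0.34) and Ybx2 (0.35), against 0.77. Over the 9 libraries other than old WT replicate 3 the standard deviations were 0.48 for S1pr1, 0.52 for Klf2, 0.27 for Ccr7 and 0.31 for Il7r. Over those 9 libraries Samhd1 still ranked 1 and Ifi30 ranked 2, while mt-Co1 ranked 1120 and Ccnd2 1709 for Ccr7. In the 6 libraries without an age the same 12 genes differed from their partner by 0.39 (Lfng and S1pr1) to 1.36 (Ybx2 and Klf2), where the standard deviation of S1pr1 itself was 0.40.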

How the data were processed

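Double-positive thymocytes of 16 libraries were measured by RNA sequencing. Per the labels, RNA came from Trizol lysates cleaned on columns, and BGI's protocol made the libraries. The submitters' processing notes name HISAT2 2.0.5 and mm10. Which program counted the reads, with what annotation and strand setting, is not given in the sources used here. As files, the authors deposited 1 raw read count per gene and library, with summary lines for reads outside genes, ambiguous or not aligned, which stayed out of library sizes. Reads counted as outside genes made up 47.5% to 51.2% of entries with an age and 7.23% to 15.0% without one.

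Identifiers were matched to gene symbols for 55154 of 55335 and 54409 of 54532 rows. Gene features are those of GENCODE for mm10. Counts were filtered with filterByExpr, scaled by TMM and tested with edgeR 4.0.16 (robust quasi-likelihood, two-sided, R 4.3.3, limma 3.58.1) at a Benjamini-Hochberg adjusted p of 0.05 over all genes tested. One fit held the 10 libraries with an age, one the 6 without, and an interaction used 12. All 4 genes passed the filter in each. Log2 CPM used a prior count of 2. Levels per kilobase divide CPM by exonic length.

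The 4 genes, the 12 gene lists and the partners were chosen with earlier results of these data known, so no list is independent evidence. The text names the 4 genes, 19 tested partners (1 more is not reported here), Mettl3, markers of other cells and the 3 nearest profiles of each gene among genes with a mean of at least 5 CPM. Socs3, Ccr2, H2-K1, H2-D1, Stat4 and Emb were named after their values were seen. Zbtb7b is one of the nearest profiles of S1pr1, so its values chose it too. Of each list, up to 4 genes with the smallest p in a comparison could also be named. Alternatives were other scalings, other filters, DESeq2 1.42.0, a replicate block, each library left out, and the 2 groups alone. Scripts were tested on simulated data. Counts per library differed by more than sampling noise within every group, so each library counts as a separate one. CPM carries counting error that is largest for S1pr1.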

Additional observations from a re-analysis of the deposited data

Results flagged for a closer look

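Within the 4 old WT libraries, the gap between the highest or lowest library and the nearest other, divided by the whole range, was compared with Dixon's 95% critical value for 4 values, over 38 measures. Chance alone would mark about 1 in 20 such sets if no library were known beforehand to stand apart. Old WT replicate 3 was known to, so the ratios only describe how far it stands apart and are no test of chance. These measures also share the same 4 libraries. The ratio was 0.838 for S1pr1, 0.978 for Ccr7 and 0.914 for Il7r, with old WT replicate 3 as the high library each time. Klf2, also highest there, did not reach the critical value. Cish, an IL-7 target gene, reached 0.922 (1.19 to 4.73 CPM in old WT). The summed level of mature single-positive thymocyte genes reached 0.920 (1750 to 3155 CPM), of myeloid markers 0.975 (32.5 to 173.3 CPM), of dendritic markers 0.912 (56.7 to 920.2 CPM) and of erythroid markers 0.885 (1.56 to 47.5 CPM). Each of these highs was in replicate 3.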

How the results depend on the processing

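Of 256 values of the 4 genes under the alternatives, 230 kept their direction and their side of the threshold, 24 changed sign and 2 passed newly, both Klf2 without METTL3 KO replicate 2 of the set without an age. The only sign change that did not come from leaving out a library was the interaction of Ccr7, at -0.14 without a filter on low counts, a setting that moved the median over all genes to 0.50 in that comparison. Leaving out each library in turn gave, for old over young WT, -0.13 to 1.67 for S1pr1, 0.02 to 1.01 for Klf2, -0.21 to 1.24 for Ccr7 and 0.13 to 1.46 for Il7r, where every lowest value was the one without old WT replicate 3. For the libraries labelled young METTL3 KO over young WT it gave -0.27 to 0.13, -0.22 to 0.003, 0.20 to 0.45 and -0.45 to -0.02 in the same gene order. For METTL3 KO over WT without an age it gave -0.23 to 0.34, -1.16 to -0.01, -0.058 to 0.42 and -0.26 to 0.49. For the interaction it gave -0.20 to 0.46, -1.02 to 0.10, -0.28 to 0.29 and -0.068 to 0.84. The number of genes called for old over young WT (36) was 85 without a filter, 153 with DESeq2 and 11 with the 2 groups alone, and 8 to 59 with a library left out: 59 without old WT replicate 4, 21 without replicate 1 of the libraries labelled young METTL3 KO, and 13, 10 and 8 without young WT replicates 1, 2 and 3. For the libraries labelled young METTL3 KO it was 1 without a filter and 0 with any library left out. Where no age is given it was 7746 to 9866, and in the interaction 5225 to 7349. The cause of these shifts was not tested.

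Replicate numbers are shared between groups, but same-numbered libraries did not deviate together: correlations of their deviations ran from -0.229 to 0.087, and 3 of 6 libraries correlated best with their own number for old and young WT and 0 of 6 in the other comparisons. The numbers were therefore not taken as pairs. With the replicate block the calls were 61 for old over young WT, 0 for the libraries labelled young METTL3 KO, 7642 where no age is given and 4543 in the interaction, and none of the 4 genes passed. Depth limits S1pr1 most.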
